A study of Mus musculus with 4 samples.

Results

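Fibroblast growth factor (FGF) signalling was read through 10 genes that are commonly used as its transcriptional output: the phosphatase gene Dusp6, the ETS transcription factor genes Etv1, Etv4 and Etv5, and the inhibitor genes Spry1, Spry2, Spry4, Spred1, Spred2 and Il17rd. They were taken as every probe whose annotated symbol, updated to the current one, is in that list. All 10 genes were measured, by 14 probes, among 16637 named genes. The series compares whole mandibles of C57BL/6 mouse embryos at E11.5 on one-colour microarrays, 1 sample per array. The control group holds 2 wild-type samples. In the other group, Bmp4 OE, 2 samples overexpressed Bmp4 conditionally after 24 hours of doxycycline. Bmp4 encodes a secreted ligand of the bone morphogenetic protein (BMP) family. The sources used here do not give the promoter or cell type that drives the transgene, the number of embryos per sample, or whether controls received doxycycline. Effects of the drug and of Bmp4 cannot be told apart. Nothing says that samples of 1 group came from separate animals or litters, so the p-values reflect the spread among these arrays alone, and that spread may be technical.

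FGFs bind receptor tyrosine kinases and, through the adaptor Frs2, Ras and the kinases Raf and Mek, activate the kinase ERK. Active ERK raises transcription of Etv4 and Etv5 and also of its own inhibitors, so the RNA of these genes is a common proxy for how strongly the pathway signals. In the early mandible, FGFs of the oral epithelium, among them Fgf8 and Fgf9, act on the mesenchyme below it, where they support survival, growth and patterning, and BMP and FGF signals are known to have opposing effects on several genes of the jaw mesenchyme.

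Values are the deposited normalised log2 intensities, and a fold change is Bmp4 OE over control. A gene passed where limma gave a Benjamini-Hochberg adjusted p under 0.05 over all 29922 probes. With 2 arrays against 2, an exact permutation test cannot give a p under 0.333, so single genes were tested in the fit across all probes alone. The deposited values have the same distribution on every array, with a median of 7.95 and a lower quartile of 6.79, so a shift shared by most genes would not show. The 2 arrays of each group correlated across probes with r = 0.993 in both groups, and arrays of different groups with r between 0.974 and 0.981. Bmp4 itself read 11.96 and 12.07 in controls and 15.27 and 15.31 in Bmp4 OE samples.

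Most of the FGF-ERK response genes were lower in the Bmp4 OE mandibles. Dusp6, Etv5, Spry2, Il17rd, Etv4 and Spred1 fell, 6 of the 10 genes through their brightest probe, against 9.54% of all named genes that fell. None of the 10 passed as higher through that probe, against 7.39% of all named genes, while at an unadjusted p under 0.05 the gene Spred2 was higher. The median log2 fold change of the 10 genes was -0.85, and that of all named genes was 0. Counted by probes, 8 of 14 fell and 1 rose, against 9.79% and 6.58% of all named probes. In whole tissue, fewer cells that express a gene and less RNA per cell cannot be told apart.

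The promoter windows of 4 genes are shown because Dusp6 and Etv5 had the steepest falls and the paralogs Spred1 and Spred2 had values of opposite sign. Each window runs from 250 bases before to 50 bases after an annotated start, 5′ to 3′ on the gene's strand, from RefSeq on GRCm38.p6. The windows lie at chr10:99262981-99263280 (plus strand) for Dusp6, chr16:22439521-22439820 (minus strand) for 1 of the starts of Etv5, chr2:117120821-117121120 (plus strand) for Spred1 and chr11:19924192-19924491 (plus strand) for Spred2. Capitals mark each match, on either strand, to CGGAA, a core that ETS factors bind, or to GGCGCC, a GC-rich motif of BMP Smads.
Dusp6: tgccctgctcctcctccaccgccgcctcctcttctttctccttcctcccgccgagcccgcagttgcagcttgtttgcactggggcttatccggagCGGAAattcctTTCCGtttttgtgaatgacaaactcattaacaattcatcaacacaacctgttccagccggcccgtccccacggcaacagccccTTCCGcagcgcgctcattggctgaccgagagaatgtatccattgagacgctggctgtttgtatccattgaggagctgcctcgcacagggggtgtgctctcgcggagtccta
Etv5: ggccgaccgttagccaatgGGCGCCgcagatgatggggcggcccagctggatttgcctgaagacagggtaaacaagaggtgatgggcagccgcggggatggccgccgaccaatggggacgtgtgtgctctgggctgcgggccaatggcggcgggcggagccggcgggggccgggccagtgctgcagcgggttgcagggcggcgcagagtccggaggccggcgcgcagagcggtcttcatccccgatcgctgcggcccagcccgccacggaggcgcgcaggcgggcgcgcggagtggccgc
Spred1: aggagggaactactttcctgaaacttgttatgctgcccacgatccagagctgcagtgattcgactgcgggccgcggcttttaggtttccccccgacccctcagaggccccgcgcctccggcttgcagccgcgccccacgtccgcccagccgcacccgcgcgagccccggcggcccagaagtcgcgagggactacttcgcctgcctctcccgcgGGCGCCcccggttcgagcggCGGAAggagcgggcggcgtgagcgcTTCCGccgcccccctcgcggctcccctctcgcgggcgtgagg
Spred2: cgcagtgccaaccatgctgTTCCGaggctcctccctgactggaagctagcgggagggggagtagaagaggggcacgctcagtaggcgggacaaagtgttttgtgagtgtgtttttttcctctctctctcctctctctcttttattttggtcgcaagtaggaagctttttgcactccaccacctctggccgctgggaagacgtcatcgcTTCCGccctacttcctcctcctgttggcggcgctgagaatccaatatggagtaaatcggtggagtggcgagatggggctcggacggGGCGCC

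Dusp6 held 3 matches to CGGAA, the window of Spred1 held 2 and that of Spred2 held 2, while the shown window of Etv5 held none. GGCGCC was found once each in the shown windows of Etv5, Spred1 and Spred2. The other window of Etv5, at chr16:22438319-22438618, held neither motif. Over the 10 windows of the 8 members in the table, 5 held CGGAA and 3 held GGCGCC, against 29.9% and 11.9% of all 32851 windows. The longer ETS sequence CCGGAAG, which contains CGGAA, was in 0 of the 10 windows and in 8.86% of all windows. The core CGGAA was searched after the longer sequence had given no match. Etv4 and Spry4 were not in the table used. These matches are letters in a window, and their relation to the fold changes was not tested.

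Dusp6, a phosphatase that removes the activating phosphates of ERK, had the largest fall. Its probe (mMC011102) read 11.03 and 11.11 in controls and 9.27 and 9.09 in Bmp4 OE samples. The groups lay 1.76 log2 units apart at their nearest arrays, while arrays of 1 group differed by at most 0.18. This was a 3.71-fold decrease, with a log2 fold change of -1.89 ± 0.12 (SE; limma, adjusted p = 0.00279). Among the fold changes of the 16637 named genes it ranked 40 from the bottom.

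The ETS factor genes Etv4 and Etv5, of the Pea3 subfamily, encode activators that carry FGF signals into transcription. Etv5 (mMC005287) read 10.53 and 10.70 in controls and 8.99 and 9.06 in Bmp4 OE samples, with no overlap between groups. It fell 3.01-fold (log2 fold change -1.59 ± 0.11, SE; limma, adjusted p = 0.00382) and ranked 58 from the bottom of all named genes. Etv4 (mMC010214) read 10.53 and 10.64 in controls and 9.67 and 9.75 in Bmp4 OE samples. Its fall was smaller, 1.83-fold, with a 95% interval of the log2 fold change from -1.14 to -0.61 that does not overlap the interval of Etv5, from -1.87 to -1.31.

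Etv1, the third Pea3 factor gene, did not pass at either of its probes. The brighter probe (mMR029346) read 8.15 and 8.20 in controls and 7.85 and 7.94 in Bmp4 OE samples. The other probe (mMC020443) read 7.53 and 7.57 against 6.98 and 7.24. Both were lower on each Bmp4 OE array than on any control array, by a small step. The log2 fold changes were -0.28 (95% interval -0.54 to -0.02; limma, adjusted p = 0.128) and -0.44 (adjusted p = 0.0736).

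**Figure D1:**
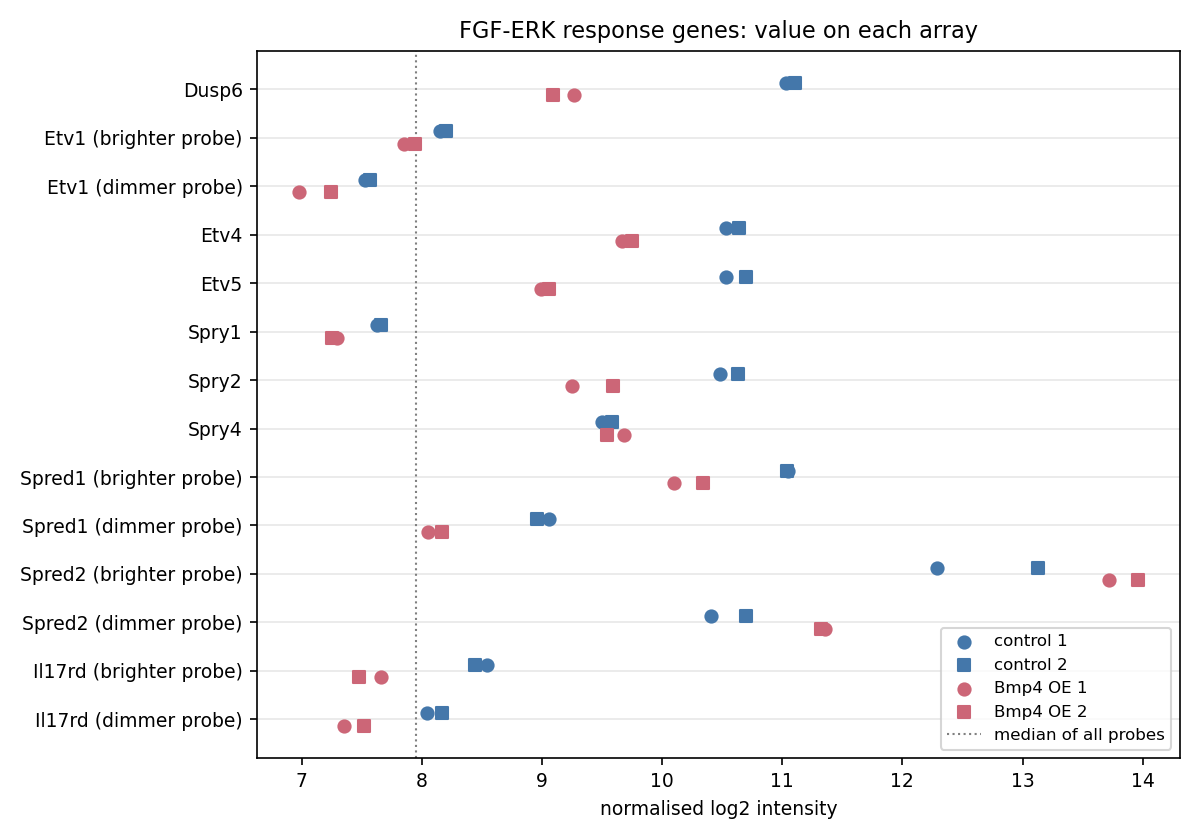
Normalised log2 intensity (horizontal axis) of each of the 14 probes of the 10 genes on the 2 control arrays (blue) and the 2 Bmp4 OE arrays (red), with circles for replicate 1, squares for replicate 2 and a dotted line at the median of all probes, 7.95. Blue points lie to the right of red ones for Dusp6, the Etv genes, Spry1, Spry2, Spred1 and Il17rd, the points of Spry4 mix, and those of Spred2 are in the opposite order.

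The Sprouty genes, which encode intracellular inhibitors of signalling from receptor tyrosine kinases to ERK, did not move alike. Spry2 (mMC010387) read 10.48 and 10.63 in controls and 9.25 and 9.59 in Bmp4 OE samples. It fell 2.20-fold, with a log2 fold change of -1.14 ± 0.15 (SE; limma, adjusted p = 0.0133), although its Bmp4 OE arrays lay 0.34 apart, the widest gap within that group among the 14 probes. Spry4 (mMC013727) read 9.50 and 9.58 in controls and 9.68 and 9.54 in Bmp4 OE samples, so the groups overlapped. Its log2 fold change was 0.07 with a 95% interval from -0.21 to 0.35 (limma, adjusted p = 0.709), and it was -0.135 when arrays were scaled on housekeeping genes. That interval does not overlap the one of Spry2, from -1.51 to -0.76. Spry1 (mMC009886) read 7.63 and 7.66 in controls and 7.29 and 7.25 in Bmp4 OE samples. Its groups did not overlap, but its log2 fold change of -0.38 (95% interval -0.63 to -0.12) did not pass (limma, adjusted p = 0.0621).

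The Spred genes, relatives of Sprouty that hold back the activation of Raf, had fold changes of opposite sign. Spred1 read 11.05 and 11.04 in controls and 10.10 and 10.34 in Bmp4 OE samples at its brighter probe (mMC019060). The other probe (mMR030993) read 9.06 and 8.96 against 8.05 and 8.17. The probes gave log2 fold changes of -0.83 and -0.90, falls of 1.77-fold and 1.87-fold, and both passed (limma, adjusted p = 0.0169 and adjusted p = 0.0115).

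Spred2 was higher on each Bmp4 OE array than on any control array at both of its probes. The brighter probe (mMR030017) read 12.29 and 13.13 in controls and 13.72 and 13.96 in Bmp4 OE samples. Its controls were 0.84 apart, the widest gap within a group among the 14 probes. Its log2 fold change was 1.13 ± 0.28 (SE) and did not pass (limma, adjusted p = 0.0517). That value was 0.71 without control replicate 1 and 1.55 without control replicate 2, so it depended on which control array was kept. The other probe (mMC020465) read 10.41 and 10.70 in controls and 11.36 and 11.32 in Bmp4 OE samples, a log2 fold change of 0.79 ± 0.13 (SE) that passed (limma, adjusted p = 0.0224). The brighter probe passed in limma when dim probes were removed (adjusted p = 0.0488 and adjusted p = 0.0473 at the lower quartile and the median) or a variance trend was used (adjusted p = 0.0319).

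Il17rd encodes Sef, a membrane protein that restrains FGF signalling, and it fell at both probes. The brighter probe (mMC014792) read 8.54 and 8.44 in controls and 7.66 and 7.48 in Bmp4 OE samples. The other probe (mMC013876) read 8.04 and 8.17 in controls and 7.35 and 7.52 in Bmp4 OE samples. The groups did not overlap at either probe. The log2 fold changes were -0.92 and -0.67 (limma, adjusted p = 0.0123 and adjusted p = 0.0246).

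**Figure D2:**
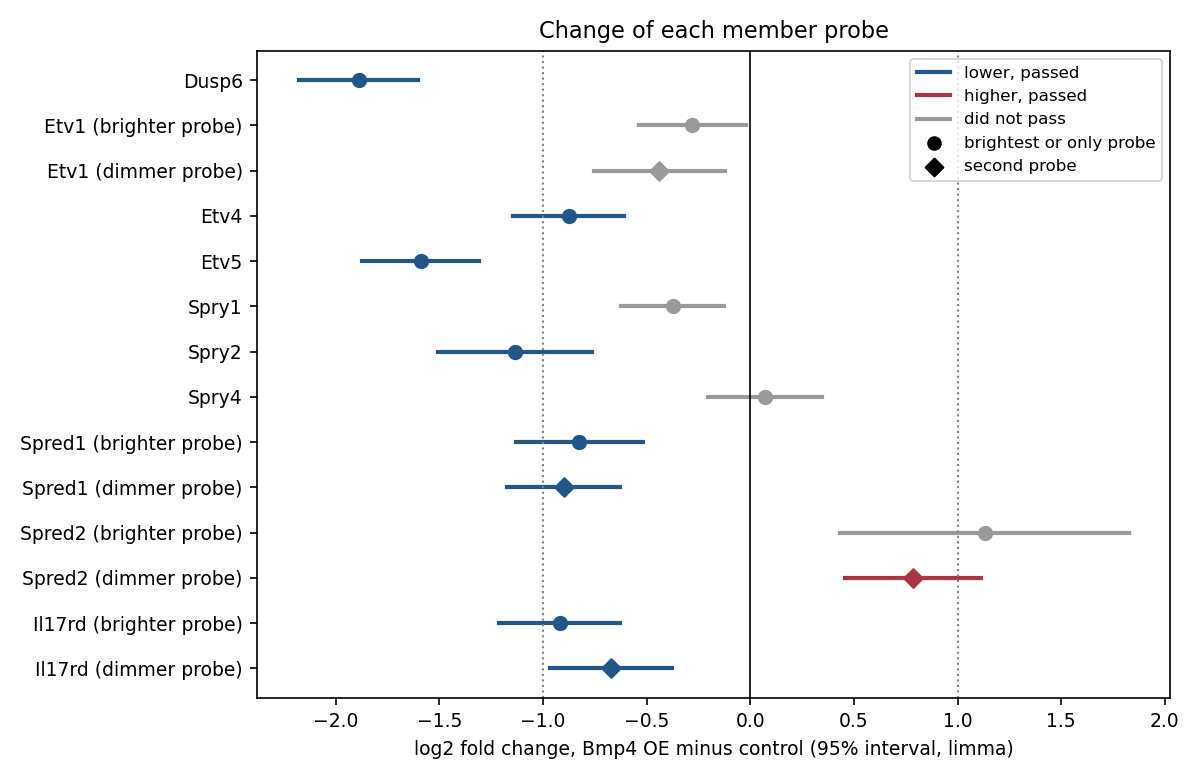
Log2 fold change of Bmp4 OE over control (horizontal axis) with its 95% interval from limma for each of the 14 probes, coloured by whether it passed at an adjusted p of 0.05, with dotted lines at a 2-fold change. The intervals of Dusp6 and Etv5 lie wholly below -1, that of Spry4 spans 0, and those of both Spred2 probes lie above 0.

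By the threshold stated for the study, at least 2-fold with an unadjusted p under 0.05, Dusp6, Etv5 and Spry2 were lower, 3 of 10 genes, against 1.76% of all named genes. Spred2 was higher by that threshold, 1 of 10 against 1.56%. The falls of Il17rd, Etv4 and Spred1, of 1.89-fold, 1.83-fold and 1.77-fold, lay just under the 2-fold line. Without any test, 8 of the 10 genes were lower on both Bmp4 OE arrays than on both control arrays, and 1 was higher. Of all named genes, 32.3% and 31% were apart in these directions, so this separation is common on these arrays.

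**Figure D3:**
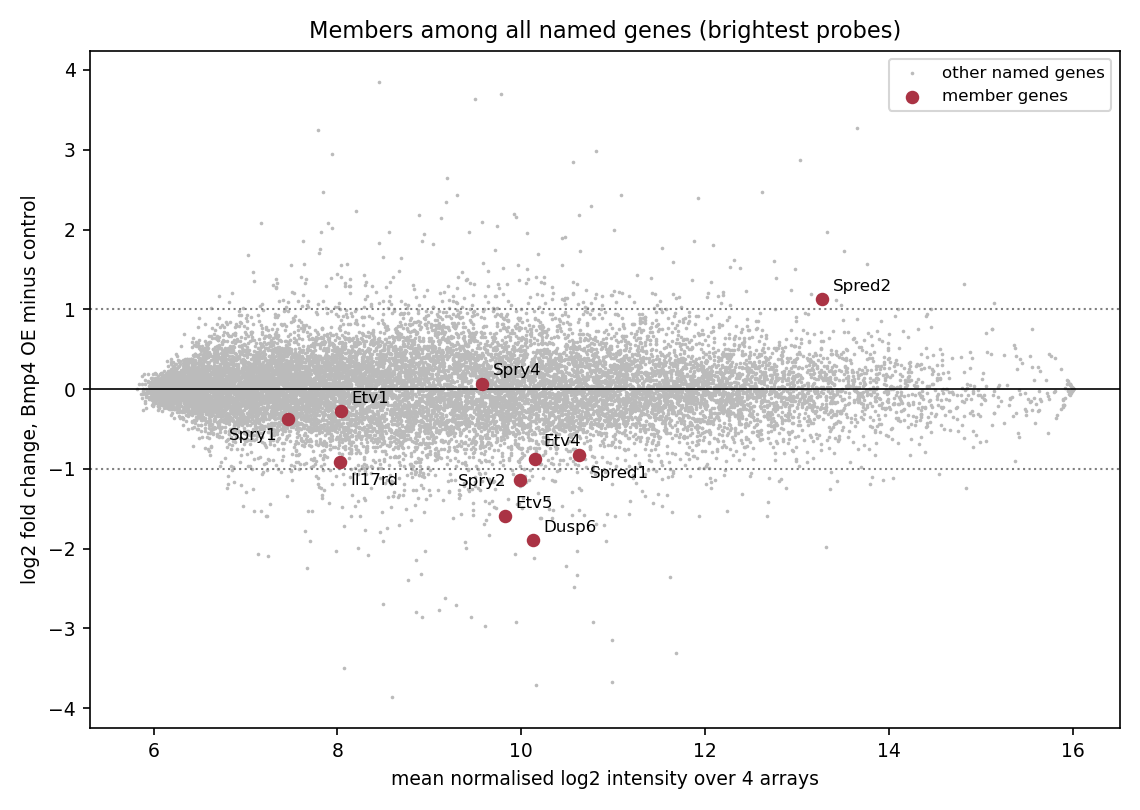
Log2 fold change (vertical axis) against mean normalised log2 intensity over the 4 arrays (horizontal axis) for all named genes through their brightest probe (grey), with the 10 member genes in red and dotted lines at a 2-fold change. Dusp6 and Etv5 lie at the lower edge of the cloud among genes of middle intensity, and Spred2 lies at its upper edge.

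Of the 22 genes listed as FGF ligands, 5 were lower, 1 higher and 16 did not pass. Beside this list and those that follow stand the 9.54% of all named genes that were lower and the 7.39% that were higher. The median log2 fold change of the 22 genes was -0.18, and 9 of the 22 lay below the lower quartile of the array. The list includes Fgf11 to Fgf14, which encode intracellular FGF homologous factors rather than secreted ligands. Fgf13 is 1 of the 5 lower genes, at -0.605 on the log2 scale, and Fgf11, Fgf12 and Fgf14 did not pass. Fgf8, the main FGF of the oral epithelium, read 8.27 and 8.34 in controls and 7.45 and 7.23 in Bmp4 OE samples. Fgf9, another epithelial ligand, read 9.41 and 9.39 against 8.59 and 8.52. Fgf10, a mesenchymal ligand that signals back to epithelium, read 9.51 and 9.15 against 7.92 and 8.04. All 3 fell without overlap between groups, by 1.95-fold, 1.80-fold and 2.55-fold (limma, adjusted p-values from 0.00949 to 0.0119). Fgf22 was the ligand that rose, from 11.39 and 11.63 to 13.15 and 13.10, but a second probe, below the lower quartile, read 6.13 and 6.22 in controls and 6.15 and 6.29 in Bmp4 OE samples.

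Of 10 receptor and co-receptor genes, 1 fell, 2 rose and 7 did not pass, with a median log2 fold change of 0. The share that fell is near that over all named genes, while the 2 that rose, on a list of 10, stand against 7.39%. Fgfr1, the main receptor of the mesenchyme, read 8.80 and 8.63 in controls and 7.82 and 8.05 in Bmp4 OE samples, a 1.72-fold fall. Fgfr2 rose 1.57-fold and Fgfrl1, a receptor without a kinase domain, rose 1.75-fold (limma, adjusted p-values of the 3 genes from 0.0201 to 0.0223). Kl, a co-receptor gene, read 6.30 and 7.40 in controls and 7.93 and 7.66 in Bmp4 OE samples and did not pass.

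Of 18 measured genes of the cascade from receptor to ERK, 1 fell, 2 rose and 15 did not pass, which is near the shares over all named genes. Through their brightest probes they had log2 fold changes between -0.49 and 0.55 and a median of -0.03. Another probe of Shc1 passed as lower at -0.925 (limma, adjusted p = 0.0173), and a further one at -0.215 did not pass. The Mek gene Map2k1 and the Raf gene Braf rose 1.46-fold and 1.42-fold. The Ras gene Hras fell 1.40-fold, but its second probe, at -0.13 on the log2 scale, did not pass (limma, adjusted p = 0.471). When arrays were scaled on housekeeping genes, 2 genes of this list fell and 0 rose. That scaling moved the median of all named genes by -0.205 and made 81.7% of all calls lower, here and in the lists below. The adaptor gene Frs3 missed the threshold at -0.39 on the log2 scale.

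Other phosphatases and modulators of the pathway were not uniformly lower. The 9 other MAP kinase phosphatase genes split evenly, with 3 lower, 3 higher and 3 that missed the threshold. Under housekeeping scaling, with its downward shift of all genes, 3 were lower and 0 higher. Dusp14 fell 2.29-fold, from 9.22 and 9.14 to 8.06 and 7.91 (limma, adjusted p = 0.00655), and Dusp7, which acts on ERK in the cytoplasm as Dusp6 does, fell 1.54-fold. Dusp2 and Dusp10 rose 1.69-fold and 1.55-fold, of which Dusp10 acts mainly on the stress kinases JNK and p38. Of 11 further genes that modulate receptor signalling, 3 were lower, 0 higher and 8 neither in limma. At an unadjusted p under 0.05 in limma, 4 of the 11 were lower and 1 higher, beside 6063 of the 16637 named genes in either direction. Flrt3, which did not pass, is counted both here and among the receptor and co-receptor genes. The 3 lower genes were Lrig3, Lrig1 and Sulf2. Lrig3 and Lrig1 encode membrane proteins, Lrig1 being an inhibitor of growth factor receptors, and fell 2.23-fold and 2.14-fold. Sulf2, a heparan sulfate sulfatase, fell 1.60-fold. Cbl, a ubiquitin ligase of activated receptors, missed the threshold at 0.66 on the log2 scale.

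Of 18 other ETS genes, 0 were lower and 1 higher in limma through their brightest probes, with a median log2 fold change of -0.05. At an unadjusted p under 0.05 in limma, 3 were lower and 4 higher. Of all 16637 named genes, 6063 passed at that level in either direction, a similar share. Under housekeeping scaling 2 of the 18 were lower and 1 higher. The gene that rose was Ets2, by 1.52-fold, from 13.60 and 13.64 to 14.25 and 14.19. Etv6, a repressor of the family, and Elf3, an epithelial factor, stood at -0.50 and 0.80 on the log2 scale, short of the threshold. A dimmer probe of Gabpa passed as lower at -0.60 (limma, adjusted p = 0.0289), while the groups overlapped at its brightest probe.

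Of 21 other measured genes that respond to ERK, 4 fell, 2 rose and 15 did not pass, and the share that rose is near that over all named genes. Their median was -0.03 on the log2 scale. Lhx8, a homeobox gene that FGF8 induces in jaw mesenchyme, fell 2.76-fold. Lhx6, of the same list, went the other way, from 8.88 and 9.05 in controls to 9.26 and 9.32 in Bmp4 OE samples, and did not pass. The cyclin gene Ccnd1 fell 2.15-fold with its other 3 probes between -1.36 and -1.17 on the log2 scale. Spsb1 and Junb rose, by 2.22-fold and 1.84-fold. The immediate early gene Egr1, named after its value was seen, read 8.65 and 8.57 in controls and 8.73 and 8.59 in Bmp4 OE samples, with overlap between groups and a 95% interval of the log2 fold change from -0.23 to 0.33.

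**Figure D4:**
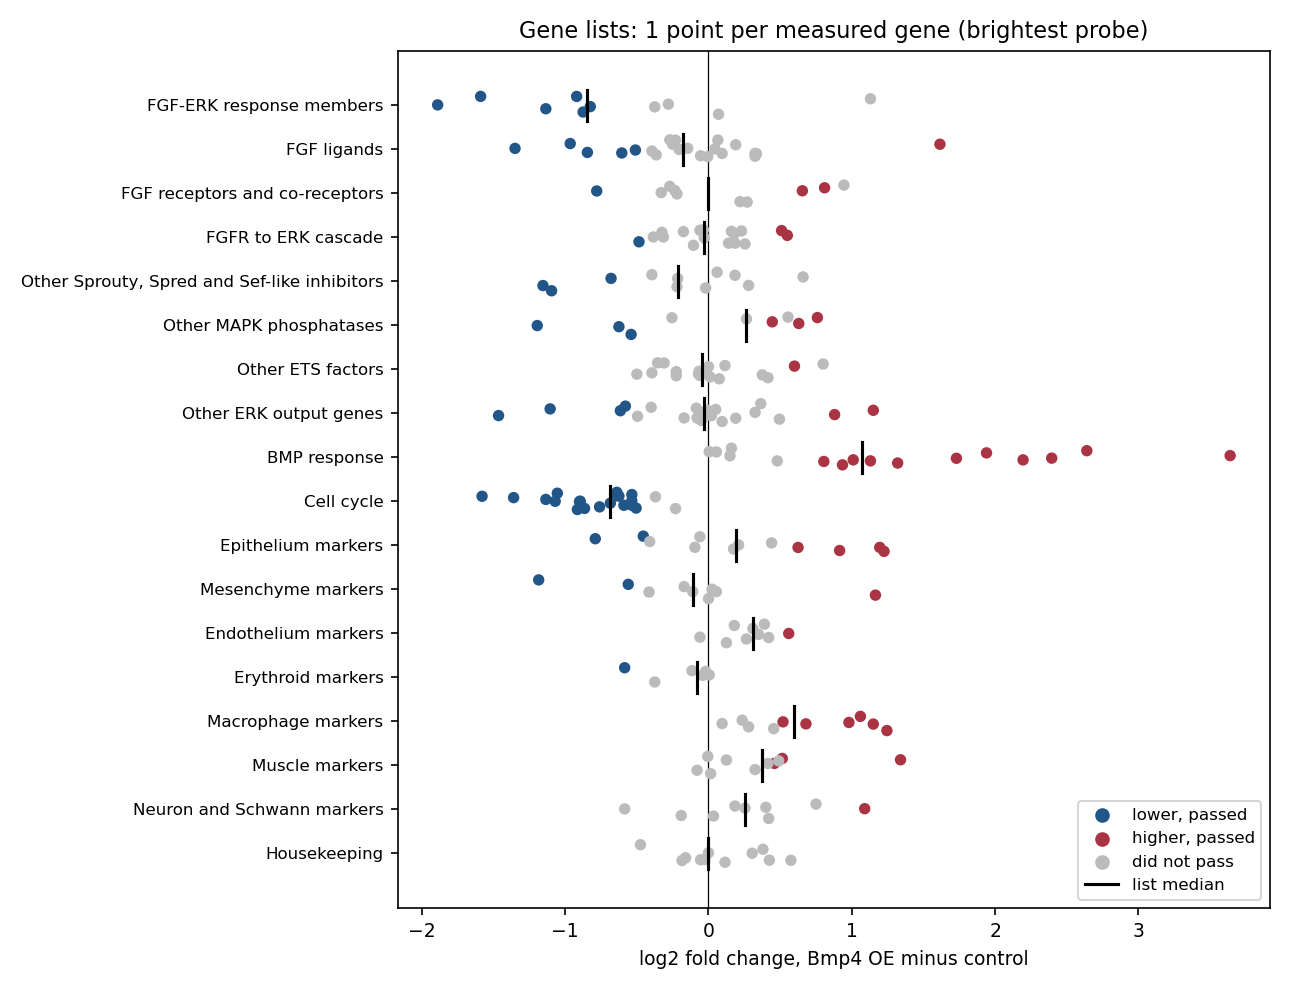
Log2 fold change (horizontal axis) of each measured gene of the lists (rows) through its brightest probe, coloured by whether it passed at an adjusted p of 0.05, with a black bar at each list's median. The median of the FGF-ERK response genes is at -0.85 and that of the cell cycle list at -0.69, while those of FGF receptors, the cascade, other ETS factors and other ERK output genes lie within 0.05 of 0.

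Other programmes moved with the same contrast. Their counts at an unadjusted p under 0.05 in limma stand beside 6063 of the 16637 named genes that passed in either direction. Of 21 cell cycle genes, 19 were lower and 0 higher in limma, the same counts as at an unadjusted p under 0.05, with a median log2 fold change of -0.69. Their summed intensity on the log2 scale ran from 17.2 to 17.24 in controls and was 16.58 in both Bmp4 OE samples. Of 16 BMP response genes 11 rose, and 12 were higher and 0 lower at an unadjusted p under 0.05. All 9 mesenchyme markers lay above the median of the array in both groups, with 2 lower and 1 higher. Of 12 epithelium markers 4 rose and 2 fell, and 3 rose and 3 fell under housekeeping scaling. Their summed intensity on the log2 scale ran from 15.46 to 15.51 in controls and from 15.27 to 15.33 in Bmp4 OE samples. Sums are of linear intensities, so the brightest genes weigh most. Here that was Krt14, which read 14.73 and 14.85 in controls and 13.96 and 14.04 in Bmp4 OE samples. The median log2 fold change of the epithelium markers was 0.19, or -0.01 under housekeeping scaling. Of 10 macrophage markers 6 rose, and their summed intensity ran from 11.74 to 11.77 in controls and from 12.48 to 12.54 in Bmp4 OE samples. Of 10 muscle markers 3 rose and 7 did not pass, with a summed intensity from 13.09 to 13.23 in controls and from 13.88 to 13.89 in Bmp4 OE samples. The rise of this sum rests mostly on Tnnt1, which read 11.59 and 11.20 in controls and 12.75 and 12.72 in Bmp4 OE samples. The endothelium list had 1 of 9 higher, or 5 at an unadjusted p under 0.05, with a summed intensity from 13.31 to 13.32 in controls and from 13.61 to 13.62 in Bmp4 OE samples. The neuron and Schwann list had 1 of 9 higher, with sums from 14.68 to 15.15 in controls and from 15.58 to 15.62 in Bmp4 OE samples. These sums rest mostly on Elavl3, which read 14.47 and 15.01 in controls and 15.46 and 15.52 in Bmp4 OE samples and did not pass. The erythroid list had 1 of 6 lower, with sums from 17.65 to 17.7 in controls and from 17.6 to 17.62 in Bmp4 OE samples. Mesenchyme sums were 17.34 in both controls and ran from 17.18 to 17.25 in Bmp4 OE samples. Hbb-y of the erythroid list read 15.99 or 16 and Vim of the mesenchyme list 16 on all 4 arrays, at the maximum of the deposited values. A rise of such genes would not show in the sums. Under housekeeping scaling, with its downward shift of all genes, 4 macrophage, 1 muscle and 0 endothelium markers were higher. The neuron and Schwann list then had 1 lower and 1 higher, the mesenchyme list 3 lower and 1 higher, and the erythroid list 2 lower. The part of these programmes and cells in the falls of Dusp6, Etv5 and the other members was not tested.

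Dusp6 was set against every other named gene to find the closest profiles over the 4 arrays. By the root mean square difference of log2 values centred on each gene's mean, the 5 nearest were Tgfbr3 (0.0718), Aldh1a2 (0.0743), Susd3 (0.0776), Prkg2 (0.0820) and Col8a1 (0.0931). Tgfbr3 encodes a co-receptor of the TGF-beta family and Aldh1a2 an enzyme that makes retinoic acid. The log2 fold changes of the 5 genes lay between -2.03 and -1.72, close to the -1.89 of Dusp6, as this measure requires of its nearest genes.

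These calls rest on all 4 arrays. Leaving out any 1 array left 1 residual degree of freedom and 0 genes past the adjusted threshold, members included, and a fit with the replicate number as a block gave 0 as well, with a lowest adjusted p of 0.0745 in limma and 5378 genes at an unadjusted p under 0.05.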

How the data were processed

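Total RNA of dissected mandibles was column-purified, amplified as aminoallyl aRNA and labelled with Cy5, according to the labels' protocols. The deposited table holds log2 intensities with 2 decimals. Its sorted columns are identical, as quantile normalisation leaves them, and the log base was inferred from the maximum of 16. Neither step is named in the labels. Scanner, background correction and probe filter: not given in the sources used here.

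Of 29922 probes, 21020 had 1 gene symbol, 0 several and 8902 none. A symbol was current for 17558, updated through a RefSeq synonym for 3410 and kept unmatched for 52. The brightest probe over all arrays stood for a gene. Groups came from the sample titles. All probes were fitted in limma 3.58.1 (R 4.3.3; lmFit, eBayes, two-sided, no filter or covariate), adjusted by Benjamini-Hochberg across the whole table. Precision is limited by the 2 arrays per group, which leave 2 residual degrees of freedom. The fit was tested on simulated data.

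The members and gene lists were chosen with earlier results of these data known. Genes named were all members, Bmp4, up to 4 genes with the smallest p per list, and the 5 profiles nearest Dusp6 outside the members. Egr1, Lhx6, Shc1, Gabpa, Flrt3, Vim, Hbb-y and Fgf11 to Fgf14 were added after their values were seen. Replicate numbers did not pair the samples, as same-numbered deviations correlated with r = -0.0711. Alternatives were an offset of 50, filters on dim probes, housekeeping scaling, a variance trend, a replicate block, leaving out each array and averaging a gene's probes.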

Additional observations from a re-analysis of the deposited data

How the results depend on the processing

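The 6 falls passed under every alternative that kept all 4 arrays in an unblocked fit, and no member that passed changed direction under any alternative. With the replicate block, which leaves 1 residual degree of freedom, 0 members were lower at the adjusted threshold, and leaving out 1 array in turn gave 0 to 0. Fold changes of Dusp6 on the log2 scale then ran from -1.98 to -1.80 and those of Etv5 from -1.68 to -1.51. The count of members higher at the adjusted threshold was 1 (Spred2) without probes under the lower quartile, without probes under the median, under housekeeping scaling, with a variance trend and with the mean of a gene's probes, and 0 to 0 with 1 array left out. At the study threshold, housekeeping scaling gave 6 members lower and 0 higher, with its shift of all genes by -0.205. Il17rd, Etv4 and Spred1, at -0.92, -0.875 and -0.825 without that scaling, then lay below -1, and Spred2 stood at 0.925. The share of all named genes at that threshold under this scaling was not computed. The mean of a gene's probes gave 0 members higher at the study threshold. The median log2 fold change of the members was -0.785 with an offset of 50, -1.06 with housekeeping scaling, and from -0.873 to -0.77 with 1 array left out. Housekeeping scaling moved the median of all genes by -0.205, so the median of the members relative to it was unchanged, raised the share of calls that were lower from 56.4% to 81.7%, and turned Spry4 to -0.135. Its prior had no finite degrees of freedom, so its p-values are not comparable with the others. Spry1 passed under housekeeping scaling and with averaged probes, and was removed with probes under the median. No detection calls were used, so whether the dimmest probes were above background is unknown.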
